A study of Homo sapiens with 8 samples.

Results

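The genes described here are a set of 43 that act in mitosis, at the kinetochore and in the spindle checkpoint, out of 17056 genes in the deposited table. They were chosen by symbol from a list of named genes, a list made with earlier results of these data known. The cells were A549, an established human lung adenocarcinoma line, and AFAP1-AS1 is a long non-coding RNA read from the strand opposite the actin-binding protein gene AFAP1. RNA-seq libraries came from 4 groups of 2 libraries each, called by the labels OE (overexpression of AFAP1-AS1), ASO (knockdown of AFAP1-AS1), ASONC (a negative control, named like the knockdown group) and Vector (a vector control). The labels do not spell out ASO, which usually means antisense oligonucleotide. If it does here, ASONC cells carried an oligonucleotide too. The time of harvest, the dose, the oligonucleotide sequences and the number of clones are not stated, and all groups share 1 cell line. The series concerns drug resistance and splicing in lung adenocarcinoma, and with AFAP1-AS1 not analysed here, the level of the targeted RNA gave no check of the labels.

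In mitosis, microtubules of the spindle attach to chromosomes at the kinetochore, a layered protein assembly built on the centromere. The spindle checkpoint holds back the anaphase-promoting complex, a ubiquitin ligase, until every kinetochore is attached, and that complex then has cyclin B and securin degraded so that sister chromatids part. Most genes of this machinery are transcribed in late S, G2 and M phase, and their mRNA level in a culture follows the share of cells in those phases. In bulk RNA, fewer dividing cells and less mRNA per dividing cell cannot be told apart.

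The libraries held between 33662221 and 37508996 reads, recovered from the steps of the FPKM values (fragments scaled by transcript length and library size). ASONC libraries listed 1435 and 1341 genes at 0, whereas the remaining libraries listed 2205 to 2327. A549 markers were high in every library (KRT8 between 1090 and 1320 FPKM, AKR1B10 between 1180 and 1520 FPKM), whereas KRT19 was at 1.51 to 4.92 FPKM. CDKN2A, which is deleted in A549, stayed at or below 0.0384 FPKM, the leukocyte gene PTPRC at or below 0.00429 FPKM and the endothelial gene PECAM1 at or below 0.49 FPKM. The labels do not say whether replicates were separate cultures, and p-values therefore rest on a spread that may be technical.

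Promoters of the set share letters that are known to act in cell-cycle genes. The CHR element (cell cycle genes homology region, usually TTTGAA or TTCGAA) is bound by the MuvB core of the DREAM and MMB-FOXM1 complexes, and CCAAT is bound by NF-Y. RefSeq promoters (GRCh38.p14, 250 bases before to 50 bases after the gene start) were at hand for 35 of the 43 genes. TTTGAA or TTCGAA, on either strand, was found in 24 of 35 (68.6%), against 10.7% of the promoters of 8702 tested genes. CCAAT was found in 27 of 35 (77.1%) against 37.0%, and 18 of 35 (51.4%) held it at least 2 times, against 14.0%. Both motifs stood in 19 of 35 (54.3%), against 4.7%. Long and short genes of the set both held them: TTTGAA or TTCGAA stood in 8 of 11 genes of 4000 bases or more and in 16 of 24 shorter ones, CCAAT in 8 of 11 and 19 of 24, and at least 2 CCAAT in 7 of 11 and 11 of 24. Whether these shares differ was not tested. The motifs can overlap, as in TTTGAATTGG of MKI67, and a match is a description, not a binding site.

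The 130 bases before the start are shown for 2 short genes (CDC20 and CCNB2) and 3 long ones (CENPF, ASPM and MKI67). All of them hold both motifs in the 300 bases, so that they are alike in this respect by choice. Not every gene of the set does: the long gene CENPE and the short gene CDC25C held neither motif. Whether promoters bear on the mRNA levels below was not tested. Each is written 5′ to 3′ on the gene's strand, with TTTGAA (or TTCAAA, the same on the other strand) and CCAAT (or ATTGG) in capitals. The stretches are chr1:43358851-43358980 (plus strand) for CDC20, chr15:59105016-59105145 (plus) for CCNB2, chr1:214603065-214603194 (plus) for CENPF, chr1:197146670-197146799 (minus) for ASPM and chr10:128126424-128126553 (minus) for MKI67.
CDC20: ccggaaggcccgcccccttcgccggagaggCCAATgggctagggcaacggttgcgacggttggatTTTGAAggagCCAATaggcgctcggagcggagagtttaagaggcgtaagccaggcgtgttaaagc
CCNB2: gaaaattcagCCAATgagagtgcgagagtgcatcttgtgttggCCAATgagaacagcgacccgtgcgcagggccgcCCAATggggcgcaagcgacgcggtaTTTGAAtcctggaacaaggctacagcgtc
CENPF: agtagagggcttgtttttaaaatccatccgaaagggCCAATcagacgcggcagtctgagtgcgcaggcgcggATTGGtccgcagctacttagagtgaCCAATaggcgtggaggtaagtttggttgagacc
ASPM: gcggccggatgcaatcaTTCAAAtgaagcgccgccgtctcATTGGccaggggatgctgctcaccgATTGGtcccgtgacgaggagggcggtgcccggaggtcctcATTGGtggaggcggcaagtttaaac
MKI67: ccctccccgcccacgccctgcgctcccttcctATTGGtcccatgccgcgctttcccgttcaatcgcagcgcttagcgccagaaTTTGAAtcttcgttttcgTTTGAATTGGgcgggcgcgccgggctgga

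Within this window CDC20 had 1 TTTGAA and 2 CCAAT, CCNB2 had 1 and 3, ASPM had 1 and 3, and MKI67 had 2 and 2. CENPF had 3 CCAAT in the stretch shown, and its TTTGAA-type match lies elsewhere in the 300 bases.

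All 43 genes passed the filter of a mean of at least 1 FPKM, and the fewest reads of any of them in a library were 408. Their mean FPKM over all libraries ran from 3.73 (KNL1, a kinetochore scaffold) to 151 (CCNB1, cyclin B1), with a median of 24.4 FPKM against 9.39 FPKM over the 10648 genes tested. The length by which FPKM was divided, recovered from the same steps, ran from 968 bases (PTTG1, securin) to 13259 bases (MKI67, the Ki-67 proliferation antigen), with a median of 2933 bases. The median GC content was 43.2% in the set and 48.3% over all genes tested. The set took 0.679% and 0.667% of all reads in OE libraries, 0.552% and 0.551% in ASO, 0.447% and 0.435% in ASONC, and 0.662% and 0.663% in Vector. By share of reads, OE and Vector were thus close, ASO lay lower and ASONC lowest, with no overlap between those levels. Reads weigh long genes more than FPKM does. Summed FPKM of the set was 1863 and 1865 in ASO, which overlaps with 1864 and 1884 in Vector. It was 1573 and 1544 in ASONC and 1901 and 1909 in OE. The set as a whole was thus lower in ASO than in Vector by reads but not by summed FPKM.

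**Figure D1:**
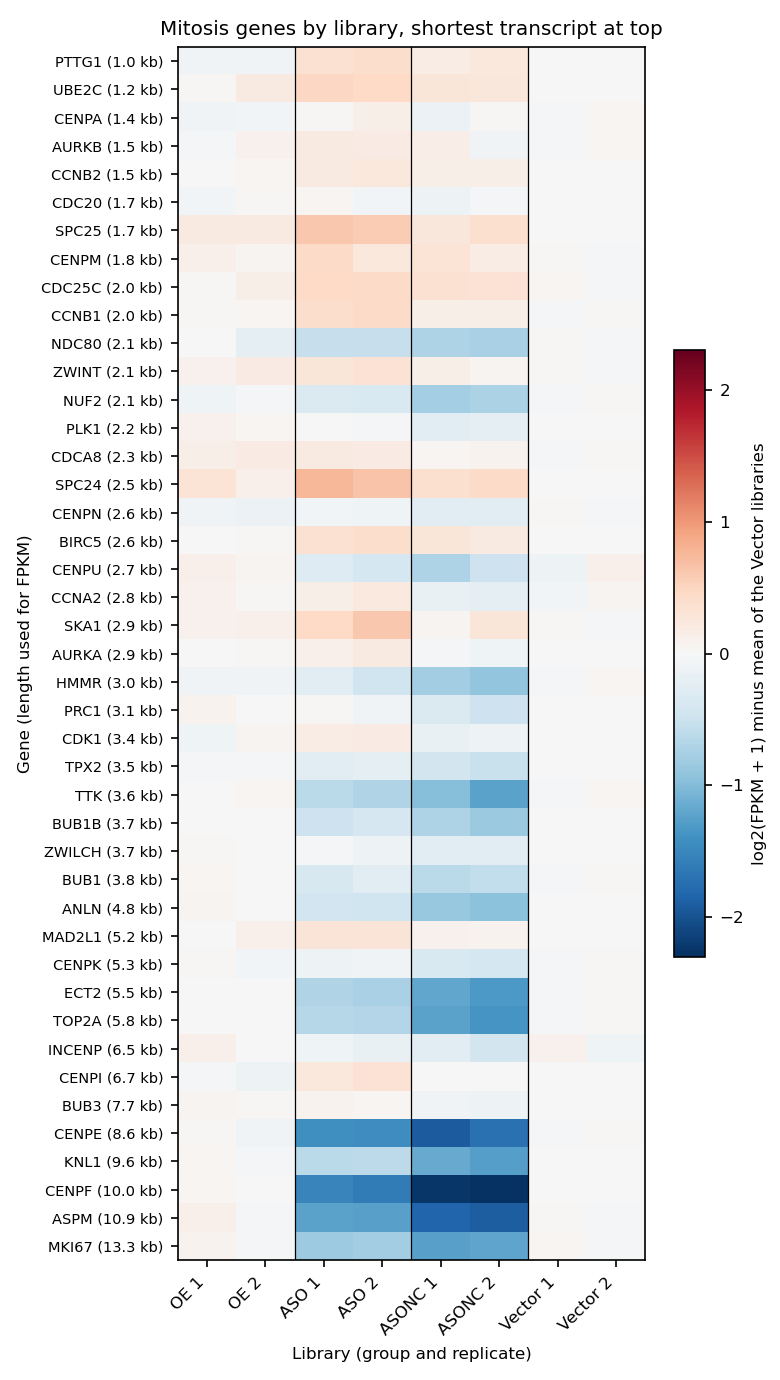
Each row is a gene of the set, ordered by the length used for FPKM (in kb, shortest at the top), and each column is a library. Colour gives log2(FPKM + 1) minus the mean of the Vector libraries: the OE columns stay pale, while CENPF, ASPM, CENPE, TOP2A and ECT2 are dark blue in ASONC and lighter blue in ASO.

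The question of the overexpression arm was what more AFAP1-AS1 does to the transcriptome. No gene of the set passed the threshold in OE against Vector, where small differences can stay undetected. Limma (Benjamini-Hochberg adjusted over 10648 genes) called 0 of 43 higher and 0 of 43 lower, with 0.0657% of all genes called higher and 0% lower. At an unadjusted p under 0.05 there were 6 of the 43, and 738 of all genes. The median log2 fold change was 0.02 in the set and 0.00 over all genes, and the 43 values lay between -0.12 and 0.21.

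CENPF, a large kinetochore and nuclear matrix protein (chromosome 1, 214603195 to 214664588, plus strand, GRCh38), had 39.0 and 38.3 FPKM in OE against 37.6 and 38.1 FPKM in Vector. CDC20, the activator of the anaphase-promoting complex that the checkpoint holds (chromosome 1, 43358955 to 43363203, plus strand), had 93.4 and 98.7 FPKM in OE against 96.6 and 97.8 FPKM in Vector. In both genes the libraries of the groups lay within or next to each other's range. ASPM, which works at spindle poles (chromosome 1, 197084128 to 197146694, minus strand), had 16.4 and 14.5 FPKM in OE against 15.2 and 14.8 FPKM in Vector. UBE2C, the ubiquitin-conjugating enzyme of the anaphase-promoting complex (chromosome 20, 45812576 to 45816957, plus strand), had 84.1 and 95.1 FPKM in OE against 82.3 and 83.0 FPKM in Vector. The OE libraries of UBE2C were both above the Vector ones but differed from each other by more than the nearer of them did from Vector.

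The genes with the smallest p in that comparison were SPC25, CDCA8 and ZWINT. SPC25, a subunit of the NDC80 complex that holds microtubules, had 16.2 and 16.2 FPKM in OE against 14.0 and 13.7 FPKM in Vector, a log2 fold change of 0.21 ± 0.05 (SE, limma adjusted p = 0.345). CDCA8 (borealin, of the chromosomal passenger complex) had 27.1 and 28.2 FPKM in OE against 24.4 and 25.1 FPKM in Vector (0.16 ± 0.05, limma adjusted p = 0.461). ZWINT, a kinetochore adaptor, had 53.4 and 57.1 FPKM in OE against 50.6 and 49.2 FPKM in Vector (0.14 ± 0.05, limma adjusted p = 0.543). In these 3 genes every OE library was above every Vector library, and no difference passed the threshold. With 2 libraries a group, no exact permutation test of a single gene can reach it.

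Knockdown was set against its own negative control. In ASO against ASONC the set was higher as a whole: limma called 33 of 43 genes higher and 0 lower, against 11.3% of all genes called higher and 10.9% called lower. All 43 log2 fold changes were above 0, between 0.07 (CDC20) and 0.70 (CENPF), with a median of 0.28 against 0.02 over all genes tested. Every gene kept a value above 0 under median-of-ratios, quantile and TPM scaling, which called 37, 34 and 40 of them higher. Of all genes called in this comparison, the share called higher moved to 62.0% under median-of-ratios and 66.4% under TPM scaling.

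On the scale of log2(FPKM + 1), the differences with the largest size were in long genes. By the ratio of mean FPKM, which no pseudocount shrinks, KNL1 came first at 1.81, and CENPE was at 1.52. CENPF had 12.6 and 11.8 FPKM in ASO against 7.26 and 7.03 FPKM in ASONC, 1.71 times the ASONC mean (log2 fold change 0.70 ± 0.05, limma adjusted p = 2.81e-06). TOP2A, which untangles sister DNA, had 85.2 and 83.3 FPKM in ASO against 56.6 and 51.5 FPKM in ASONC (0.63 ± 0.05, limma adjusted p = 2.76e-06). ASPM had 5.85 and 5.71 FPKM in ASO against 3.53 and 3.31 FPKM in ASONC (0.62 ± 0.07, limma adjusted p = 9.41e-05). The gap between groups exceeded the gap between replicates several times over in each of them.

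KNL1, the scaffold that recruits checkpoint proteins, had 2.96 and 3.01 FPKM in ASO against 1.75 and 1.55 FPKM in ASONC (0.59 ± 0.08, limma adjusted p = 0.000307). ECT2, the exchange factor that activates RhoA for cytokinesis, had 35.4 and 34.0 FPKM in ASO against 24.5 and 22.4 FPKM in ASONC (0.55 ± 0.05, limma adjusted p = 1.95e-05). HMMR, a spindle-associated protein, had 21.9 and 18.8 FPKM in ASO against 14.5 and 13.4 FPKM in ASONC (0.51 ± 0.07, limma adjusted p = 0.000405). The groups did not overlap in any of these, and HMMR had the widest spread between its ASO libraries. UBE2C had 115.9 and 114.1 FPKM in ASO against 100.3 and 99.5 FPKM in ASONC (0.20 ± 0.05, limma adjusted p = 0.0151). CDC20 had 100.1 and 93.1 FPKM in ASO against 89.3 and 94.4 FPKM in ASONC, groups that overlap (0.07 ± 0.05, limma adjusted p = 0.311).

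By role, the spindle and cytokinesis genes (ANLN, ECT2, ASPM, TPX2, PRC1 and HMMR) were called higher in 6 of 6, with a median log2 fold change of 0.49. Of all genes tested, 11.3% were called higher. The checkpoint genes (BUB1, BUB1B, BUB3, MAD2L1, the kinase TTK and ZWILCH) were also called in 6 of 6, with a median of 0.24. Of the outer kinetochore genes 8 of 9 were called (median 0.37), all but NDC80 (0.20 ± 0.08, limma adjusted p = 0.0753), and of the inner centromere genes 3 of 6 (CENPI, CENPK and CENPN). The mitotic kinases, cyclins and the phosphatase CDC25C had 5 of 7 called. Cyclin A2 (CCNA2, 0.38 ± 0.06) and CDK1 (0.33 ± 0.06) stood ahead of cyclin B2 (CCNB2, 0.09 ± 0.04) and CDC25C (0.10 ± 0.07), which were not called. The chromosomal passenger complex, which corrects faulty attachments, had 1 of 4 called (BIRC5, 0.13 ± 0.04), and AURKB, INCENP and CDCA8 had 0.16, 0.21 and 0.14. Of the genes around the anaphase-promoting complex 2 of 3 were called (UBE2C and PTTG1), and both chromosome structure genes, TOP2A and MKI67, were called.

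**Figure D2:**
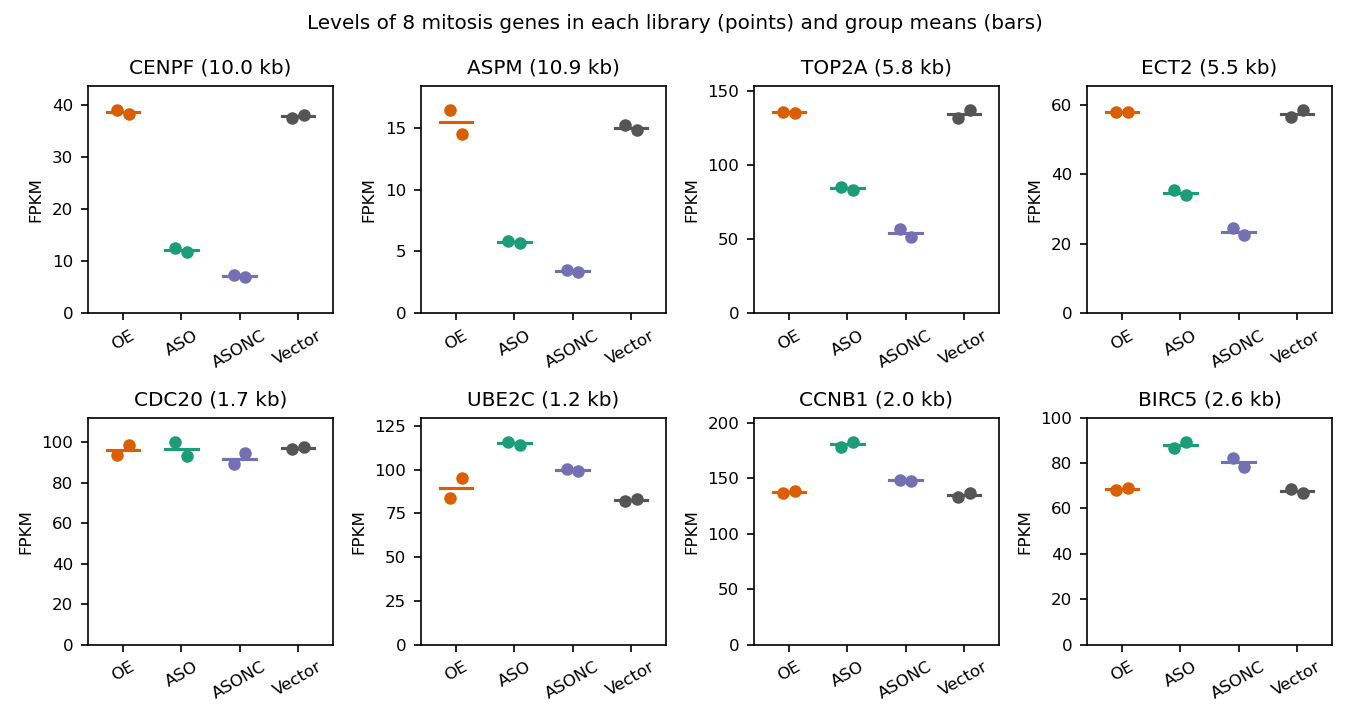
FPKM of 8 genes of the set in each library (points; horizontal bars are means of 2 libraries), with the length used for FPKM in kb in each title. In the top row (CENPF, ASPM, TOP2A, ECT2) ASO lies above ASONC and both lie far below OE and Vector, whereas in the lower row (CDC20, UBE2C, CCNB1, BIRC5) the lowest group mean is 0.945 times that of Vector (CDC20 in ASONC).

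The controls were then set against each other, which shows how far ASONC and Vector cells differ without any change in AFAP1-AS1 being intended. The set split: in ASONC against Vector limma called 24 of 43 genes lower and 9 higher, where 31.8% of all genes were called lower and 36.8% higher. The median log2 fold change was -0.23 in the set and 0.04 over all genes tested. Scaling decides how many are called higher. TPM scaling changes the ratio of ASONC to Vector by -0.22 on the log2 scale for every gene, before the pseudocount is added. Under it 33 genes were called lower and 1 higher (SPC24), and the share of all called genes that was higher came to 31.7%. The 24 genes called lower included the large decreases, and of the 9 called higher, CCNB1, CCNB2 and PTTG1 changed sign under TPM and quantile scaling.

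CENPF fell to 7.26 and 7.03 FPKM in ASONC, against 37.6 and 38.1 FPKM in Vector, 0.189 times the Vector mean (log2 fold change -2.26 ± 0.05, limma adjusted p = 1.69e-10). ASPM fell to 3.53 and 3.31 FPKM in ASONC, against 15.2 and 14.8 FPKM in Vector (-1.86 ± 0.07, limma adjusted p = 2.09e-09). CENPE, the kinesin that carries chromosomes to the spindle equator, fell to 1.40 and 1.76 FPKM in ASONC, against 7.92 and 8.18 FPKM in Vector (-1.82 ± 0.08, limma adjusted p = 8.4e-09). These decreases were many times the spread between replicates, and the libraries of the groups were far apart.

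TOP2A fell to 56.6 and 51.5 FPKM in ASONC, against 131.4 and 136.9 FPKM in Vector (-1.30 ± 0.05, limma adjusted p = 1.72e-09). ECT2 fell to 24.5 and 22.4 FPKM in ASONC, against 56.5 and 58.4 FPKM in Vector (-1.26 ± 0.05, limma adjusted p = 2.78e-09). MKI67 fell to 26.7 and 27.5 FPKM in ASONC, against 67.1 and 63.1 FPKM in Vector (-1.23 ± 0.05, limma adjusted p = 3.85e-09). Each of the 6 genes had less in every ASONC library than in any Vector library, and these are some of the longest mRNAs of the set.

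The genes called higher had smaller differences. SPC24, of the NDC80 complex, had 8.20 and 8.65 FPKM in ASONC against 6.14 and 6.07 FPKM in Vector (0.41 ± 0.08, limma adjusted p = 0.000561). CDC25C, the phosphatase that activates CDK1, had 11.3 and 11.1 FPKM in ASONC against 8.99 and 8.28 FPKM in Vector (0.34 ± 0.07, limma adjusted p = 0.000567). SPC25 had 16.8 and 18.1 FPKM in ASONC against 14.0 and 13.7 FPKM in Vector (0.31 ± 0.05, limma adjusted p = 0.000282). In these 3 genes every ASONC library was above every Vector library.

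UBE2C had 100.3 and 99.5 FPKM in ASONC against 82.3 and 83.0 FPKM in Vector (0.27 ± 0.05, limma adjusted p = 0.000489), with the opposite sign once length and GC trends were removed (-0.18). BIRC5 (survivin) had 82.1 and 78.4 FPKM in ASONC against 68.5 and 66.8 FPKM in Vector (0.24 ± 0.04, limma adjusted p = 0.000206; 0.06 and not called with the trends removed). CENPM, an inner centromere protein, had 12.6 and 11.3 FPKM in ASONC against 10.2 and 9.69 FPKM in Vector (0.24 ± 0.08, limma adjusted p = 0.0153; -0.33 with the trends removed). CDC20 had 89.3 and 94.4 FPKM in ASONC against 96.6 and 97.8 FPKM in Vector (-0.08 ± 0.05, limma adjusted p = 0.143). Of these 4 genes, CDC20 alone missed the threshold, and its libraries did not overlap between the controls either.

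By role, the spindle and cytokinesis genes were called lower in 6 of 6 (median log2 fold change -0.88) and both chromosome structure genes likewise. Of the checkpoint genes 4 of 6 were called lower (BUB1, BUB1B, TTK and ZWILCH), with BUB3 at -0.10 ± 0.05 and MAD2L1 at 0.10 ± 0.06 not called. The outer kinetochore had 5 lower and 2 higher of 9, and the inner centromere 3 lower and 1 higher of 6. The kinases, cyclins and phosphatase had 3 lower (CDK1, CCNA2 and PLK1) and 3 higher (CCNB1, CCNB2 and CDC25C) of 7. Of all genes, 31.8% were called lower and 36.8% higher, and the counts of this last role lie near those shares. Whether any role differs from all genes was not tested. The chromosomal passenger complex had INCENP lower (-0.34 ± 0.08), BIRC5 higher, and AURKB and CDCA8 near 0 (0.03 and 0.06). As deposited, per 100 FPKM of UBE2C there were 46.4 and 40.3 FPKM of CENPF in OE, 10.8 and 10.4 in ASO, 7.24 and 7.07 in ASONC, and 45.7 and 45.9 in Vector. With length and GC trends removed, ASONC against Vector was -1.80 for CENPF and -0.18 for UBE2C, a smaller gap and the same sign.

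Against Vector, genes of the set were called in both directions in ASO libraries, in shares somewhat above those of all genes. Whether the shares differ was not tested. Limma called 16 of 43 genes lower and 18 higher, where 28.8% of all genes were called lower and 34.1% higher, and the median log2 fold change was -0.02 against 0.03 over all genes tested. Under TPM scaling, which changed the log2 ratio of ASO to Vector by -0.18 for every gene before the pseudocount, 23 were called lower and 9 higher. Of all called genes, 31.9% were then higher. CENPF had 12.6 and 11.8 FPKM in ASO against 37.6 and 38.1 FPKM in Vector (-1.56 ± 0.05, limma adjusted p = 2.67e-09). CENPE had 2.42 and 2.36 FPKM in ASO against 7.92 and 8.18 FPKM in Vector (-1.42 ± 0.08, limma adjusted p = 1.04e-07). Both were far below every Vector library, and ASPM (-1.24 ± 0.07), MKI67 (-0.82 ± 0.05), ECT2 (-0.71 ± 0.05) and TOP2A (-0.66 ± 0.05) were called lower too.

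SPC24 had 11.1 and 10.2 FPKM in ASO against 6.14 and 6.07 FPKM in Vector (0.71 ± 0.08, limma adjusted p = 9.79e-06). SPC25 had 21.9 and 21.2 FPKM in ASO against 14.0 and 13.7 FPKM in Vector (0.60 ± 0.05, limma adjusted p = 2.22e-06). SKA1, which follows the tips of microtubules, had 9.89 and 11.3 FPKM in ASO against 7.17 and 6.78 FPKM in Vector (0.54 ± 0.08, limma adjusted p = 0.000174). Every ASO library was above every Vector library in these 3 genes, as it was in UBE2C, CDC25C and CCNB1 (0.47 ± 0.05, 0.45 ± 0.07 and 0.42 ± 0.03). CCNB1, the cyclin that drives entry into mitosis, had 178.6 and 182.9 FPKM in ASO against 133.3 and 137.2 FPKM in Vector. CDC20 was not called (-0.01 ± 0.05, limma adjusted p = 0.856), but was called lower with length and GC trends removed (-0.36 ± 0.04, limma adjusted p = 1.74e-05). The comparisons of ASO against ASONC, ASONC against Vector and ASO against Vector share libraries pairwise, so their values are set side by side and are not independent.

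Long and short genes of the set moved differently by their medians, with a wide spread inside the middle classes. In ASONC against Vector the median log2 fold change of the set was 0.21 for 9 genes under 2000 bases, -0.25 for 21 genes of 2000 to under 4000, -0.36 for 8 genes of 4000 to under 8000 and -1.82 for 5 genes of 8000 bases or more. The same medians over all genes tested were 0.41, 0.13, -0.11 and -0.28, so the set lay below all genes in each class and farthest below in the longest. Single genes of the set ran from -1.10 to 0.41 in the class of 2000 to under 4000 bases. They ran from -1.30 to 0.10 in that of 4000 to under 8000, where MAD2L1 (0.10) and BUB3 (-0.10) were near 0. In ASO against ASONC the medians of the set were 0.14, 0.28, 0.28 and 0.59, against -0.06, 0.01, 0.05 and 0.08 over all genes.

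As a description over the 43 genes, which share libraries and differ in base composition, Spearman's rho of length with the log2 fold change was 0.63 in ASO against ASONC, -0.70 in ASONC against Vector and -0.14 in OE against Vector. Over all genes it was 0.27, -0.52 and -0.08. With GC content, rho over the set was -0.61 in ASO against ASONC and 0.56 in ASONC against Vector, where all genes had -0.45 and 0.52. Length and GC content thus moved with these results. ASO libraries listed 2270 and 2264 genes at 0 and Vector libraries 2323 and 2327, and rho with length in ASO against Vector was -0.66. Whether the low count of genes at 0 in ASONC is tied to the trend with length was not tested.

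**Figure D3:**
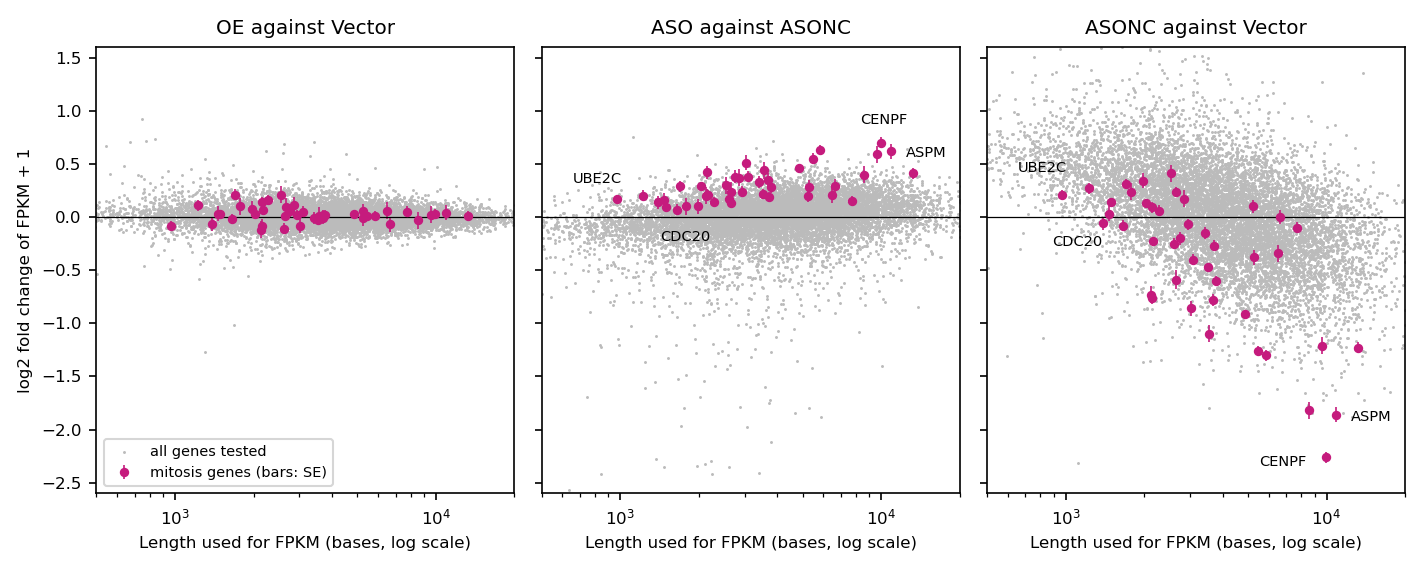
Log2 fold change of FPKM + 1 (vertical axis) against the length used for FPKM (horizontal, log scale) for the set (coloured points with SE bars) and all genes tested (grey), in 3 comparisons. The set hugs 0 in OE against Vector, lies above 0 throughout in ASO against ASONC, and slopes down to CENPF at -2.26 in ASONC against Vector; between 87 and 132 genes per panel lie outside the axes and are not drawn.

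To see what is left without those trends, a smooth trend on annotated exon length and GC content was removed from each library and the fit repeated over the 10439 genes with both values. In ASO against ASONC 34 of 43 genes were called higher and 0 lower, where 9.12% of all genes were called higher and 8% lower, and all 43 values stayed above 0 (median 0.27). The calls were not all of the same genes: 5 were lost and 6 gained, and CDC20 was among those gained (0.20 ± 0.04, limma adjusted p = 0.00447), as were AURKB, INCENP and CDCA8, so that the passenger complex was called in 4 of 4. BUB3, MAD2L1 and ZWILCH lost their calls, which left 3 of 6 checkpoint genes called.

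In ASONC against Vector, with the trends removed, 30 of 43 genes were called lower and 5 higher, where 30.3% of all genes were called lower and 29.1% higher, and the median was -0.38. CENPF remained lowest at -1.80, ASPM and CENPE were both at -1.35 and TOP2A was at -0.98. CDC20 and UBE2C were called lower (-0.56 and -0.18), and the 5 called higher were CENPI, SPC25, BUB3, MAD2L1 and CDC25C. BIRC5 and SPC24 lost their calls (0.06 and 0.11). Among the genes called with either sign as deposited, CENPM, UBE2C and PTTG1 turned negative and CDK1 positive.

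In ASO against Vector, with the trends removed, 20 of 43 genes were called lower and 14 higher, where 27.3% of all genes were called lower and 28.4% higher, and the median was -0.10. CENPF stayed lowest at -1.21 and CENPE was at -1.10. SPC25 (0.53), SPC24 (0.50), SKA1 (0.48) and CCNB1 (0.33) were still called higher, and UBE2C was at 0.16. CENPM, AURKB and CDCA8, called higher as deposited, were at -0.06, -0.10 and -0.01 and were not called.

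**Figure D4:**
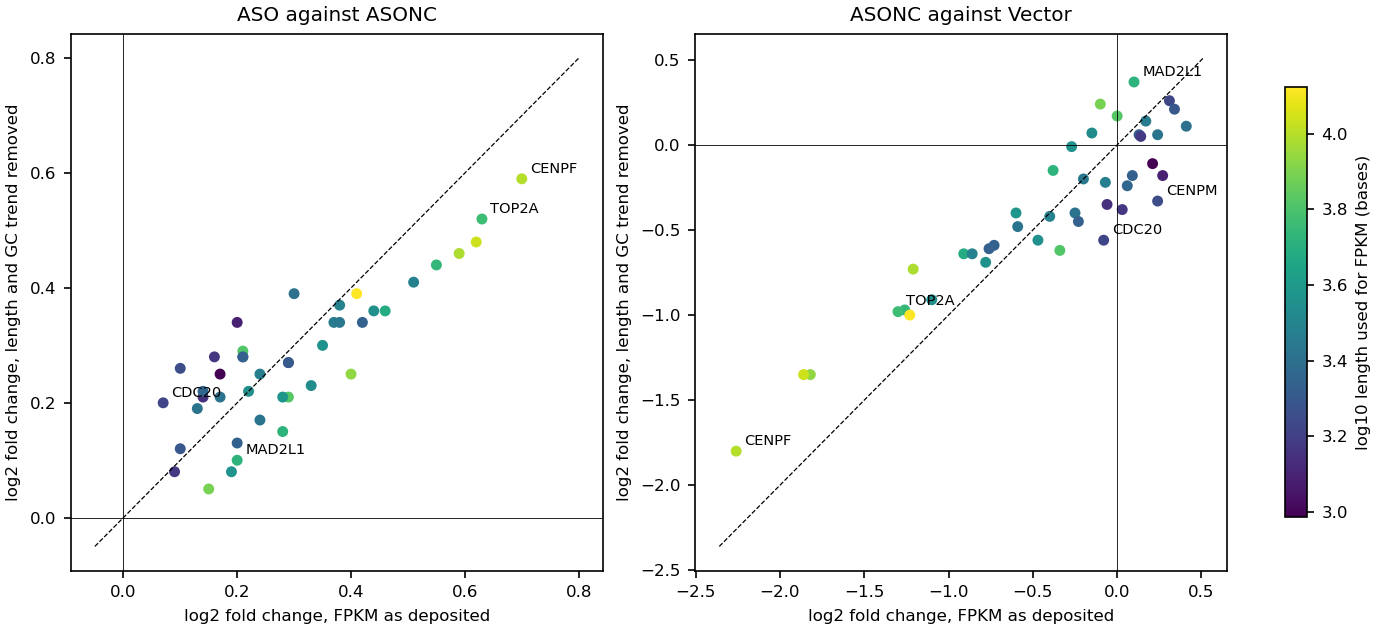
Log2 fold change with length and GC trends removed (vertical) against the value as deposited (horizontal) for each gene of the set, coloured by log10 of the length used for FPKM; the dashed line marks equal values. In ASO against ASONC all 43 points stay above 0 on both axes, and in ASONC against Vector CENPF stays lowest on both (-2.26 and -1.80) while CENPM crosses 0.

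The subunits of the NDC80 complex, a 4-protein rod, parted by pairs. The length used for FPKM was 2131 bases for NDC80, 2150 for NUF2, 2545 for SPC24 and 1698 for SPC25, while the annotated exon lengths were 3600, 3362, 2839 and 1841 bases, so that the pair that fell is the longer by annotation. GC content was 40.1%, 38.8%, 53.4% and 40.0% in the same order. NDC80 and NUF2 pair at the microtubule end, and SPC24 and SPC25 at the end anchored in the kinetochore. NDC80 had 5.39 and 5.25 FPKM in ASONC against 9.63 and 9.34 FPKM in Vector (log2 fold change -0.73 ± 0.08, limma adjusted p = 4.44e-06). NUF2 had 10.4 and 10.9 FPKM in ASONC against 18.3 and 19.1 FPKM in Vector (-0.76 ± 0.06, limma adjusted p = 2.27e-07). Both fell while SPC24 and SPC25 were higher in ASONC, as given above.

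With length and GC trends removed the values were -0.59 for NDC80, -0.61 for NUF2, 0.11 for SPC24 (no longer called) and 0.26 for SPC25. In ASO against Vector the same pairs parted again, NDC80 at -0.53 ± 0.08 and NUF2 at -0.34 ± 0.06 against SPC24 at 0.71 ± 0.08 and SPC25 at 0.60 ± 0.05. In ASO against ASONC all 4 were above 0, between 0.20 for NDC80 and 0.42 for NUF2. This contrast between pairs was picked out after the values were seen.

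**Figure D5:**
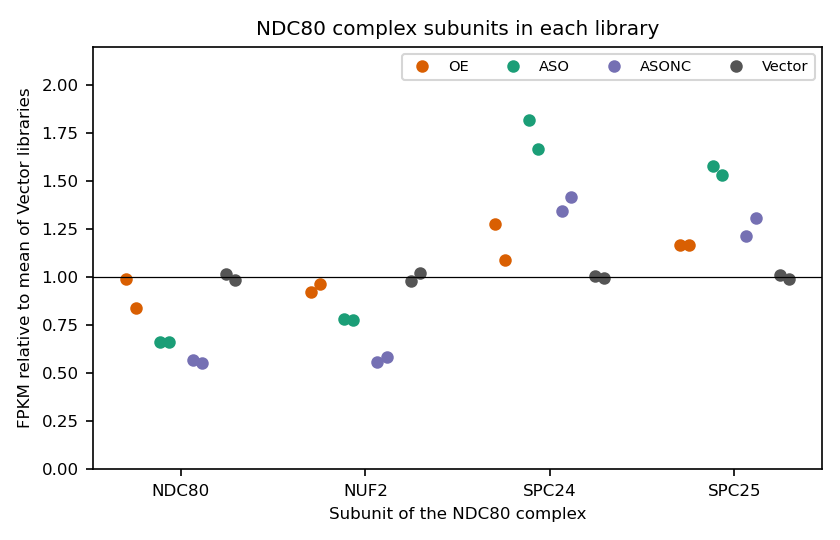
FPKM of the NDC80 complex subunits in each library, divided by the mean of the Vector libraries (line at 1). NDC80 and NUF2 lie below 1 in ASO and ASONC, whereas SPC24 and SPC25 lie above 1 in both; OE libraries lie nearer to 1.

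Other genes of mitosis were read from lists outside the set, 106 genes of which 105 were tested. In ASO against ASONC 41 of 105 were called higher and 1 lower, where 11.3% of all genes were called higher and 10.9% lower, with a median log2 fold change of 0.17 against 0.28 in the set. With length and GC trends removed, 37 of 105 were called higher and 0 lower, where 9.12% of all genes were called higher and 8% lower. Counts by list and values of single genes are given as deposited. The spindle and cytokinesis list had 16 of 24 higher. Smallest in p were the cytokinesis gene CEP55 (0.47 ± 0.04) and the spindle genes DLGAP5 (0.49 ± 0.05) and NUSAP1 (0.38 ± 0.04). Other outer kinetochore genes were called higher in 5 of 11 (KNTC1, the Rod subunit that works with ZWILCH, at 0.46 ± 0.09, with DSN1 at 0.33 ± 0.06 and SKA2 at 0.21 ± 0.04), and other inner centromere genes in 4 of 14 (the CENP-A chaperone HJURP at 0.30 ± 0.04 and CENPO at 0.28 ± 0.05).

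The list of the anaphase-promoting complex held 17 genes, its subunits together with FZR1, FBXO5 and UBE2S, which act with or on it. Of these 17, 2 were called higher in ASO against ASONC, a share near the 11.3% of all genes. They were CDC27 (0.26 ± 0.05) and ANAPC4 (0.25 ± 0.08), with CDC16 at 0.17 ± 0.06 not called. Regulators of mitotic entry and exit had 7 of 16 higher, among them the kinases PBK (0.27 ± 0.05) and MELK (0.25 ± 0.05) and the phosphatase inhibitor ARPP19 (0.24 ± 0.05). Of the transcription factors of G2 and M phase 6 of 15 were higher, with FOXM1, an activator of these genes, at 0.23 ± 0.05, RBL1 (p107) at 0.36 ± 0.07 and RBBP4, of the MuvB core, at 0.25 ± 0.05. In the list of checkpoint and cohesion protection genes SGO2, which guards centromeric cohesin, was higher (0.53 ± 0.08), the checkpoint gene MAD1L1 was lower (-0.28 ± 0.06) and TRIP13 was at 0.13 ± 0.05, so that 1 of 8 was called each way. MAD1L1 was no longer called lower with length and GC trends removed.

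In ASONC against Vector 53 of the 105 were called lower and 24 higher, where 31.8% of all genes were called lower and 36.8% higher, with a median of -0.16. With length and GC trends removed, 54 were called lower and 16 higher, where 30.3% of all genes were called lower and 29.1% higher. Counts by list and values of single genes are again as deposited. Other outer kinetochore genes were lower in 8 of 11 and higher in 0, among them KNTC1 (-1.34 ± 0.09) and the microtubule-stabilizing CLASP2 (-0.53 ± 0.08) and CLASP1 (-0.47 ± 0.07). Other spindle and cytokinesis genes were lower in 15 of 24 and higher in 5, among them ARHGAP11A (-1.25 ± 0.07), the microtubule polymerase CKAP5 (-1.04 ± 0.05) and DLGAP5 (-0.84 ± 0.05). Other inner centromere genes were lower in 5 of 14 and higher in 4, near the shares of all genes, with CENPO at -0.59 ± 0.05 and CENPX at 0.61 ± 0.05.

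Checkpoint and cohesion protection genes were lower in 4 of 8 and higher in 2, with SGO2 at -1.41 ± 0.08, SGO1 at -0.45 ± 0.08 and MAD2L1BP at 0.39 ± 0.09. In the list of the anaphase-promoting complex, with FZR1, FBXO5 and UBE2S included, 7 of 17 were lower and 6 higher. These shares are near those of all genes (31.8% lower and 36.8% higher). Among the subunits, CDC27 was at -0.64 ± 0.05, ANAPC1 at -0.64 ± 0.07 and the catalytic RING subunit ANAPC11 at 0.62 ± 0.06. Regulators of mitotic entry and exit were lower in 6 of 16 and higher in 4, with CKS2, a partner of CDK1, at 0.63 ± 0.03, ENSA at 0.52 ± 0.05 and the phosphatase gene PPP1CA at 0.49 ± 0.04. Transcription factors were lower in 8 of 15 and higher in 3, with RBL1 at -0.81 ± 0.07, LIN9, of the MuvB core, at -0.47 ± 0.10 and E2F4 at 0.33 ± 0.06. The same 105 gave 0 calls by limma in OE against Vector, with a median of 0.01. Whether the set differs from these lists was not tested.

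Some genes of the set share exonic sequence with a gene on the other strand or have same-named pseudogenes, and whether counting used strand is not stated in the sources. CENPN overlaps genes on the other strand over 22.8% of its exonic length, PLK1 over 12.5%, CENPU over 11.7% and ZWILCH over 10.9%, and 10 genes, CDC20, UBE2C, PTTG1, CCNB2, AURKA and MKI67 among them, have pseudogenes in GENCODE 29. Their values are less certain for that reason. Without these 13 genes, a choice made after seeing the data, 23 of 30 were called higher and 0 lower in ASO against ASONC. Of all genes, 11.3% were called higher and 10.9% lower there. In ASONC against Vector 18 of the 30 were called lower and 6 higher, where 31.8% of all genes were called lower and 36.8% higher.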

How the data were processed

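RNA was measured in 8 A549 libraries, 2 in each of 4 groups. The authors deposited 1 table of FPKM values per gene and library, per the file header. Tools listed in the submitters' processing notes are HISAT2, featureCounts, HTSeq and R 3.2.0, with the build hg38 (GRCh38) and no roles. Strand use, annotation and filters are not given in these sources. Whole reads were recovered from the FPKM steps of all 17056 genes within a tolerance of 0.02 reads.

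The deposited FPKM values were turned into log2(FPKM + 1) and tested with limma 3.58.1 (eBayes with trend, two-sided; R 4.3.3). The fit held all 4 groups, 10648 genes averaging 1 FPKM or more, and 4 residual degrees of freedom. Genes whose Benjamini-Hochberg adjusted p over all genes tested was under 0.05 are called. Values are log2 fold changes ± SE, and the pseudocount makes changes of low genes look smaller. The code was tested on simulated data. Replicates were kept separate, since chi-square over its degrees of freedom was 5.11 to 5.88 between them. Lengths, GC content and positions came from GENCODE release 29 (GRCh38), promoters from RefSeq (GRCh38.p14). Trends were splines of 5 degrees of freedom.

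The genes and lists were chosen with earlier results of these data known. CENPF, ASPM, CDC20 and UBE2C are given throughout, with up to 6 called genes of largest change in each direction per comparison (where none was called, the 3 with the smallest p) and up to 3 of each other list with the smallest p. A gene that this rule names is not reported here. Alternatives were pseudocounts of 0.1 and 0.5, no filter or a mean of 5 FPKM, other scalings, removal of length and GC trends, voom on recovered reads, fits restricted to the groups compared, a replicate block and leaving out each library.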

Additional observations from a re-analysis of the deposited data

How the results depend on the processing

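Over 41 values of named genes and 20 alternatives, 780 values kept direction and side of the threshold, 19 lost a call, 11 gained a call and 7 changed sign. The other 3, of KNL1 and CENPE, had no value under the filter at 5 FPKM. Most named genes were chosen for large called changes, which favours stable values. Over all 43 genes, ASONC against Vector under TPM scaling lost 7 calls and gained 8, and 8 genes changed sign. After the length and GC correction it lost 7 calls and gained 9, and 9 genes changed sign. In ASONC against Vector, 9 genes called higher became 1 under TPM scaling, 5 after the length and GC correction and 5 with the length implied by FPKM (chosen after seeing the data). In ASO against Vector, 18 called higher became 9 under TPM scaling. UBE2C and CENPM in ASONC against Vector changed sign, to -0.18 and -0.33 after the length and GC correction and to -0.12 and -0.24 with the implied length. How much of each change is due to length or GC was not tested. Leaving out each library in turn, genes called higher ranged from 23 (without ASO replicate 2) to 33 in ASO against ASONC, from 8 to 9 in ASONC against Vector (22 to 24 lower) and from 14 to 18 in ASO against Vector (16 lower), and 0 genes of the set were called in OE against Vector. Among the named genes, uncalled values near 0 changed sign there: ASPM (-0.04 to 0.12) and CDC20 (-0.06 to 0.02) in OE against Vector and CDC20 (-0.06 to 0.04) in ASO against Vector. Over the whole set, 4 to 7 genes changed sign in OE against Vector when an OE or Vector library was left out. In ASO against ASONC 1 gene did without ASO replicate 1, which left 42 of 43 above 0. In each of the remaining comparisons up to 2 genes did.

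Same-numbered replicates did not deviate together (correlations of deviations between -0.061 and 0.062), which gave no sign that the numbers pair samples. The labels do not say whether they do. With a replicate block 34 genes were called higher in ASO against ASONC, 9 higher and 24 lower in ASONC against Vector, and 18 higher and 17 lower in ASO against Vector. With 2 libraries a group, small differences stay undetected.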
